A study of Drosophila melanogaster with 18 samples.

Results

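The genes described here are the Methuselah-like receptors of Drosophila melanogaster, taken as every probe set whose symbol in the annotation of the array begins with mthl followed by a number. A probe set is the group of short DNA probes that together measure 1 gene. Of 16322 probe sets on the array 4 fit, 1 each for mthl8, mthl10, mthl11 and mthl13. RefSeq lists 15 mthl genes, and the other 11 have no probe set named for them here, where 2392 probe sets carry a single gene symbol. Within the family the members were therefore set by the annotation and not by their signal. The family itself was chosen with earlier results of these data known.

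Methuselah-like receptors are G protein-coupled receptors of the secretin class that are found in insects, with a membrane-spanning core and, in many members, a large outer domain that can bind a ligand. They are named after Methuselah (mth), the receptor whose loss lengthens the life of the fly and raises its resistance to stress, and many of them arose by gene duplication in the Drosophila lineage. mthl10 is a receptor for growth-blocking peptides, which link nutrition to insulin release and to immune responses. No ligand is given here for mthl8, mthl11 or mthl13.

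RNA of larvae of the third instar was measured on 18 Affymetrix Drosophila Gene 1.1 ST arrays, with 2 arrays in each of 9 groups. Both arrays of a group are labelled as biological replicates, and by the study's methods each sample was a pool of larvae. The sources do not say whether such pools stem from different crosses, so p-values measure the spread between pools. All flies were raised at the same temperature on cornmeal medium, and the larvae were washed before RNA was taken.

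The groups differ in a transgene for DNMT3L, a mammalian protein that works with DNA methyltransferases, in the driver that turns it on and in the generation. w1118 is the strain that was injected to make the transgenic lines. UAS-3L G1 and UAS-3L G5 carried the transgene without the driver, and served as controls of the first and the fifth generation. The Tub-3L larvae of G1, G2, G4 and G5 carried the transgene on the second chromosome and tubulin-GAL4, which is active throughout the body, on the third chromosome, and were bred by crossing siblings of each generation. Tub-3L G5P stands for larvae of G5 that showed melanotic tumors. Tub-3L G20* is the name in the title of a group whose driver had been crossed out, although another of its labels speaks of G5 larvae, so that its generation is uncertain. The Tub-3L flies were made from a single transgenic line and kept as homozygotes. The "3L" in the group names stands for DNMT3L, not for the chromosome arm 3L that is named further on. No probe set here is named for DNMT3L, so the level of the transgene was not analysed.

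Signals are given on the log2 scale, on which a step of 1 is a 2-fold difference. They were deposited after RMA, a procedure that subtracts background, brings the arrays to a common distribution and summarises the probes of a gene. The median signal of an array lay between 6.17 and 6.39 and the lower quartile between 4.16 and 4.57. Groups were compared with limma, a linear model that was fitted to all 16322 probe sets and 18 arrays together, with p-values adjusted across the whole array by the Benjamini-Hochberg method. A probe set passed the test at an adjusted p under 0.05, and was called when it passed and differed at least 2-fold. SD refers to the 2 arrays of a group and SE to the limma fit.

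The strain and the generations differed in much more than these receptors, and markers of adult organs were high in the late driver groups. Genes for salivary glue proteins, which are made by the larval salivary gland late in larval life, were lower for 6 of 6 markers in G5 and in G5P, with a summed log2 level of 14.3 to 14.4 in UAS-3L G1, 11.8 to 11.9 in G5 and 6.46 to 6.49 in G5P. Ovary and female germline markers were higher for 6 of 6 in both, at 7.18 to 7.29 in UAS-3L G1, 12.2 to 12.3 in G5 and 12.5 to 12.7 in G5P, and the same markers reached 11.5 to 11.6 in G4. Hemocyte markers, of which 4 of 14 have a named probe set, were called lower for 4 of 4 in G5 and G5P and higher for 3 of 4 in w1118. In Tub-3L G2 the ovary list had a median difference of -0.044 from UAS-3L G1, with 0 of 6 called by limma and 2 of 6 at an unadjusted p under 0.05. Of the salivary glue genes 2 of 6 were called lower there. Against UAS-3L G1, 23.2% of all probe sets were called in G5, 28.9% in G5P, 5.62% in G2 and 4.21% in w1118. From RNA of whole larvae alone, fewer cells of a type and less RNA in each cell cannot be told apart. By microscopy the study reported more hemocytes in G5 Tub-3L larvae, with and without tumors, than in UAS-3L larvae.

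mthl8 was the member with the widest range. It was high in both UAS-3L groups, in G20* and in Tub-3L G1, and low in w1118 and in every driver group from G2 on. In the groups without the driver, the 2 arrays read 6.41 and 6.29 in UAS-3L G1, 6.61 and 6.37 in UAS-3L G5, and 6.36 and 6.28 in G20*. In w1118, which also lacks the driver, the arrays read 2.74 and 3.03. In the driver line they read 6.04 and 6.17 for G1, 3.74 and 3.92 for G2, 3.56 and 3.94 for G4, 2.54 and 2.84 for G5, and 2.86 and 3.05 for G5P. The 8 arrays of the high groups and the 10 arrays of the low groups did not overlap, and all 10 low readings lay below the lower quartile of their array. The range of the 9 group means was 3.80, against a largest difference of 0.38 between arrays of 1 group.

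**Figure D1:**
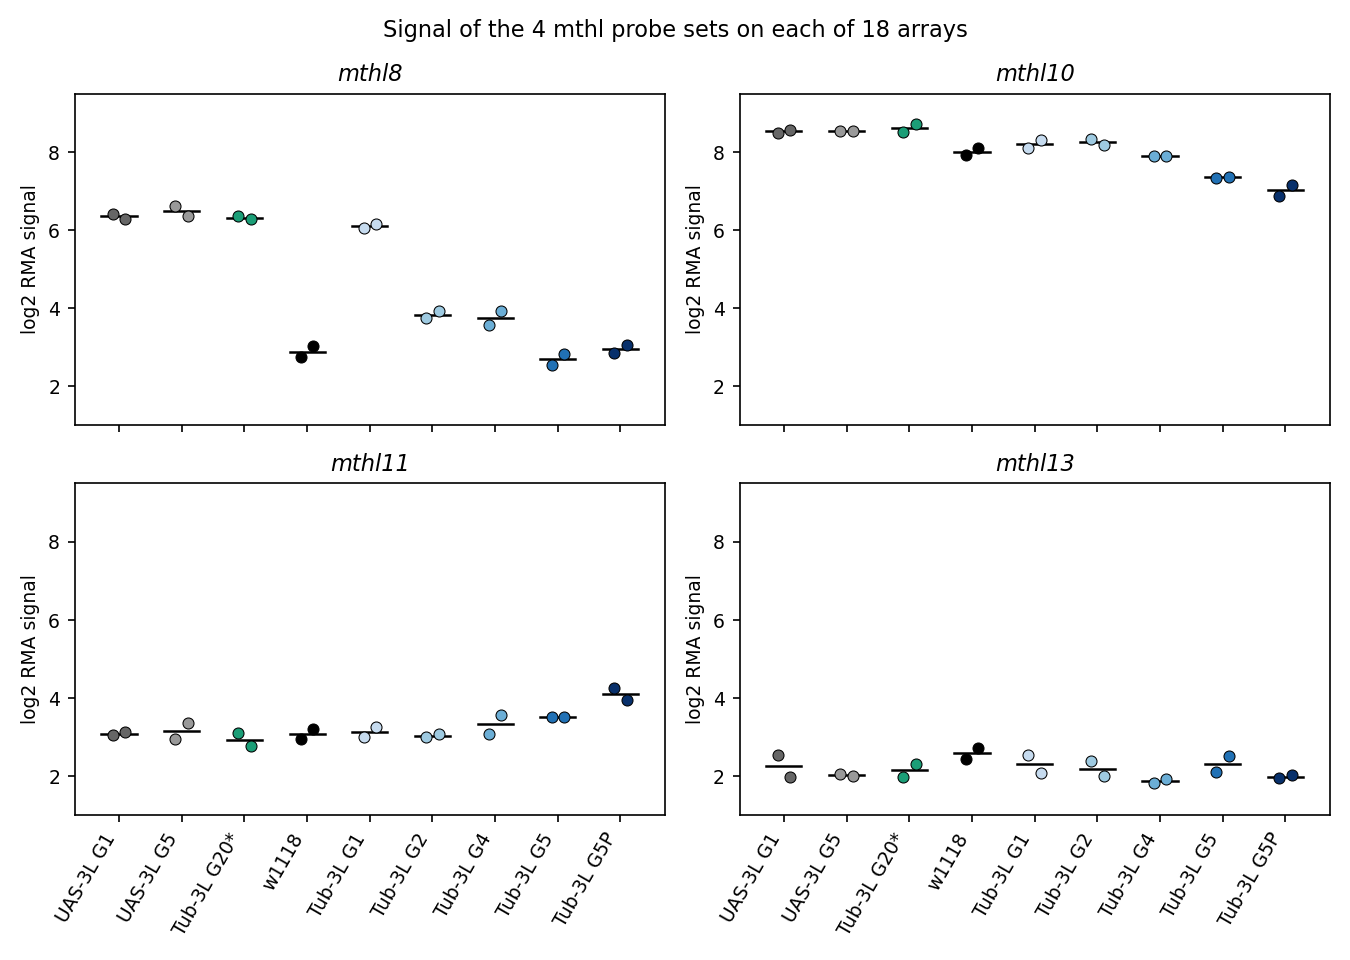
Log2 RMA signal (vertical axis) of the 4 mthl probe sets on each of 18 arrays, with the groups along the horizontal axis, 1 point for each array and a bar at the mean of the 2 arrays of a group. mthl8 lies between 6.04 and 6.61 in 4 groups and between 2.54 and 3.94 in the other 5, mthl10 declines to 6.87 in G5P, mthl11 is highest in G5P and mthl13 stays between 1.84 and 2.72.

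The 9 group means of mthl8 fell into 3 tiers. UAS-3L G5, UAS-3L G1, G20* and Tub-3L G1 came first, at means of 6.49 ± 0.17, 6.35 ± 0.09, 6.32 ± 0.06 and 6.11 ± 0.09 (SD, n = 2 each), and no neighbours in this order differed by limma (adjusted p from 0.374 to 0.924). A gap of 2.28 then separated Tub-3L G1 from Tub-3L G2 (adjusted p = 1.08e-06, limma). G2 and G4 followed at 3.83 ± 0.13 and 3.75 ± 0.27. A second gap of 0.79 separated G4 from G5P (adjusted p = 0.000972, limma). G5P, w1118 and G5 came last, at 2.96 ± 0.14, 2.89 ± 0.20 and 2.69 ± 0.21, again with no neighbours that differed by the test.

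Setting the injected strain beside the transgene lines showed the sharpest contrast for mthl8. Against UAS-3L G1 the signal in w1118 fell by 3.46 on the log2 scale, or 11.0-fold (SE 0.16, 95% interval from -3.81 to -3.12, adjusted p = 5.65e-08, limma). mthl8 was the only 1 of the 4 members called in that comparison, in which 4.21% of all probe sets were called, and it ranked 9 of 16322 by the size of its decrease. Against the mean of the 3 other groups without the driver it fell by 3.50, or 11.3-fold (SE 0.13, adjusted p = 3.09e-09), with 5.01% of all probe sets called and a rank of 4. Against the mean of all 8 transgene-line groups, 4 of which are low themselves, the decrease was 1.93, or 3.80-fold (adjusted p = 1.1e-07, 6.59% called). w1118 thus stood with the late driver groups for mthl8 and not with the other larvae without the driver.

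The mthl8 signal in w1118 was close to that in the late driver groups. It differed from Tub-3L G5 by 0.20 (95% interval from -0.15 to 0.54, adjusted p = 0.307, limma) and from G5P by -0.071 (95% interval from -0.41 to 0.27, adjusted p = 0.718). From G2 and G4 it differed by -0.94 and -0.86, and both differences passed the test without reaching 2-fold (adjusted p = 0.000608 and 0.000777, limma). All these readings lay below the lower quartile of their arrays. Marker genes of other tissues did not all move alike here. Hemocyte markers had a median difference from UAS-3L G1 of 1.13 in w1118 and of -1.67 in G5. For the salivary glue genes the medians were -0.43 in w1118 and -2.63 in G5. The part of tissue makeup in the mthl8 difference was not tested.

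Along the driver line the mthl8 signal dropped at G2 and again at G5. Tub-3L G1 differed from UAS-3L G1 by -0.24, which did not pass (95% interval from -0.59 to 0.10, adjusted p = 0.307, limma), and 2.94% of all probe sets were called in this comparison. In G2 the signal fell by 2.52, or 5.74-fold (adjusted p = 5.89e-07), as 1 of 4 members called against a background of 5.62%, and the fall was 2.60 or 6.07-fold in G4 (adjusted p = 9.1e-08), again as 1 of 4 against 12.4%. In G5 it fell by 3.66, or 12.6-fold (adjusted p = 1.76e-09), and in G5P by 3.39, or 10.5-fold (adjusted p = 1.87e-09). These comparisons share the 2 arrays of UAS-3L G1.

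Steps between successive groups do not use the UAS-3L arrays. From G1 to G2 mthl8 fell by 2.28, or 4.85-fold (adjusted p = 1.08e-06, limma), with 5.11% of all probe sets called. From G2 to G4 it differed by -0.079 (95% interval from -0.42 to 0.26, adjusted p = 0.742). From G4 to G5 it fell by 1.06, or 2.08-fold (adjusted p = 0.000413), with 4.66% called, and tumor-bearing G5P larvae differed from G5 larvae by 0.27 (95% interval from -0.08 to 0.61, adjusted p = 0.178). The largest step thus lay between G1 and G2. The summed level of the ovary markers was 7.72 to 7.74 in G2, 7.18 to 7.29 in UAS-3L G1 and 11.5 to 11.6 in G4. Against UAS-3L G1, 2 of 3 named midgut markers were called higher in G2 and 2 of 6 salivary glue genes lower. In that comparison 5.62% of all probe sets were called. The midgut markers were called higher for 3 of 3 already in Tub-3L G1, and 0 of 6 salivary glue genes were called there. The summed midgut level was 10.44 to 10.61 in Tub-3L G1 and 10.49 to 10.54 in G2. The part of other tissues in these steps was not tested.

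The UAS-3L G5 and G20* larvae, which carry no driver, had a high signal. UAS-3L G5 differed from UAS-3L G1 by 0.14 (95% interval from -0.20 to 0.48, adjusted p = 0.619, limma), where 1.72% of all probe sets were called, and G20* differed by -0.032 (95% interval from -0.37 to 0.31, adjusted p = 0.924), where 1.66% were called. Compared within the fifth generation, Tub-3L G5 was 13.9-fold below UAS-3L G5 for mthl8, a decrease of 3.80 (adjusted p = 1.17e-09), with 22.8% of all probe sets called. The difference between driver and no-driver larvae was itself larger in G5 than in G1, by -3.55 (SE 0.22, adjusted p = 9.17e-08, limma interaction). In that test of the change 46.2% of all probe sets passed by adjusted p alone.

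**Figure D2:**
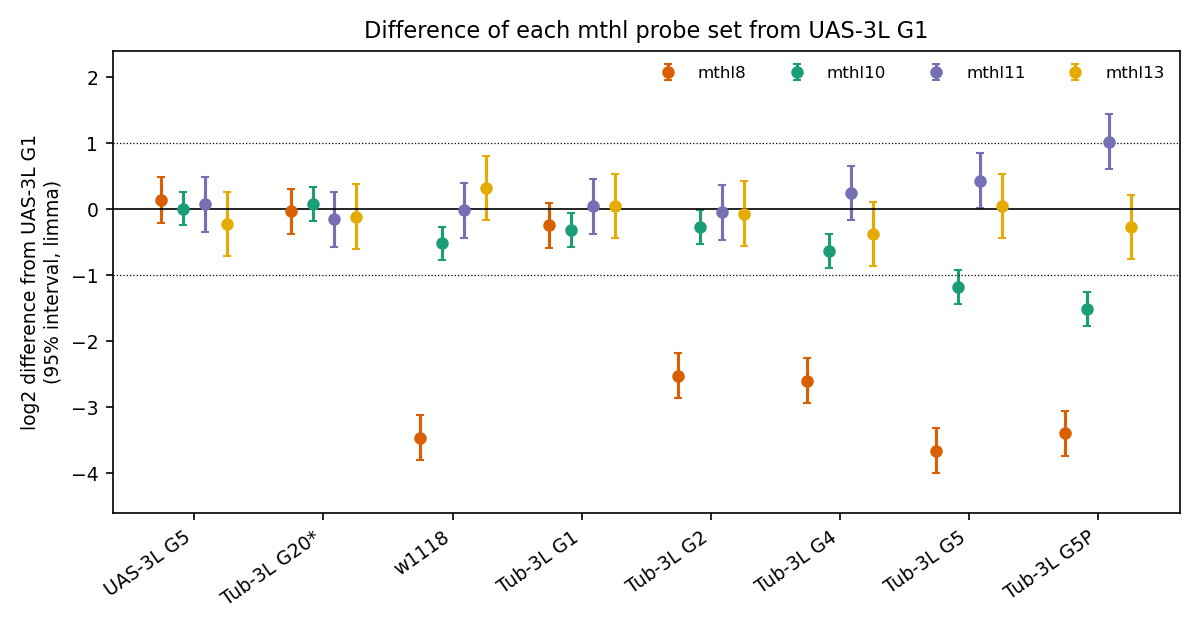
Log2 difference of each group from UAS-3L G1 (vertical axis) for mthl8, mthl10, mthl11 and mthl13, with the 95% interval of the limma fit as bars and dotted lines at 2-fold. mthl8 lies at -3.46 in w1118 and between -2.52 and -3.66 from G2 on, mthl10 passes the lower dotted line in G5 and G5P alone, and mthl11 passes the upper line in G5P alone, at 1.02.

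mthl10, the receptor for growth-blocking peptides, lay above the median of every array, with readings from 6.87 to 8.71, and declined in the late generations. The arrays read 8.50 and 8.57 in UAS-3L G1, 8.53 and 8.55 in UAS-3L G5, 8.52 and 8.71 in G20*, and 7.93 and 8.10 in w1118. In the driver line they read 8.10 and 8.32 for G1, 8.33 and 8.19 for G2, 7.89 and 7.91 for G4, 7.34 and 7.36 for G5, and 6.87 and 7.17 for G5P. The arrays of G5 and of G5P lay below those of all other groups and did not overlap with each other. How many of all probe sets had such an order was not counted. Against UAS-3L G1, 10.2% of all probe sets were called lower in G5 and 13.7% in G5P. w1118 lay between G4 and Tub-3L G1, and below the other groups without the driver.

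For mthl10 the decline was gradual and was called in G5 and G5P. Against UAS-3L G1 the differences were -0.32 in Tub-3L G1 and -0.27 in G2, neither of which passed (adjusted p = 0.0761 and 0.0987, limma). Centring every array on its median moved them by -0.099 and -0.10, and both then passed. With single arrays left out the Tub-3L G1 difference ranged from -0.43 to -0.21. In G4 the signal fell by 0.63, or 1.55-fold, which passed without reaching 2-fold (adjusted p = 0.000917). It fell by 1.18, or 2.27-fold, in G5 (SE 0.12, adjusted p = 2.97e-06) and by 1.52, or 2.86-fold, in G5P (adjusted p = 2.16e-07). With mthl8 this made 2 of 4 members called in G5, where 23.2% of all probe sets were called, and with mthl11 it made 3 of 4 in G5P, where 28.9% were. In the ranking by decrease mthl10 stood at 1366 of 16322 in G5 and mthl8 at 44, so that mthl10 lay among many probe sets with falls of its size.

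The steps of mthl10 between driver generations passed from G2 on. The signal fell by 0.36 from G2 to G4 (adjusted p = 0.033, limma) and by 0.55 from G4 to G5 (adjusted p = 0.00504). Between G5 and G5P it fell by 0.33, or 1.26-fold (95% interval from -0.59 to -0.08, adjusted p = 0.0299). That last difference did not pass when every array was centred on its own median (-0.20) or when any 1 of the 4 arrays was left out other than G5P replicate 2. None of these steps reached 2-fold. Within the fifth generation mthl10 was lower with the driver by 1.19, or 2.28-fold (adjusted p = 2.85e-06, limma), and the driver difference was larger in G5 than in G1 by -0.87 (SE 0.17, adjusted p = 0.00095, limma interaction).

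w1118 was also lower than the other no-driver larvae for mthl10, by far less than for mthl8. Its signal fell by 0.52 against UAS-3L G1 (1.43-fold, adjusted p = 0.00597, limma) and by 0.55 against the mean of the 3 other groups without the driver (1.46-fold, adjusted p = 0.000715). Against the mean of all 8 transgene-line groups the difference was -0.039 (95% interval from -0.23 to 0.15, adjusted p = 0.753). Without w1118 replicate 1, the decrease against UAS-3L G1 was 0.44 and no longer passed. Unlike mthl8, mthl10 was higher in w1118 than in G5, by 0.66 (adjusted p = 0.000391, limma), and than in G5P, by 0.998 (adjusted p = 9.55e-06).

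mthl11 went the other way in tumor-bearing larvae. Its arrays read 3.05 and 3.12 in UAS-3L G1, 2.94 and 3.37 in UAS-3L G5, 3.10 and 2.77 in G20*, and 2.94 and 3.20 in w1118. In the driver line they read 3.005 and 3.255 for G1, 2.999 and 3.080 for G2, 3.09 and 3.57 for G4, 3.52 and 3.51 for G5, and 4.26 and 3.95 for G5P. Both G5P arrays lay above all 16 others, while the remaining groups ran into each other. How many of all probe sets had G5P arrays apart in this way was not counted. Against UAS-3L G1, 15.2% of all probe sets were called higher in G5P. The mthl11 signal was below the lower quartile of the array on 17 of 18 arrays, so these are dim readings throughout.

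In G5P mthl11 rose by 1.02 against UAS-3L G1, or 2.03-fold (SE 0.19, 95% interval from 0.60 to 1.44, adjusted p = 0.000484, limma). Against G5 it rose by 0.59, or 1.51-fold (adjusted p = 0.0203, limma). With single arrays left out this rise ranged from 0.435 to 0.745, and it did not pass in every such fit. In that comparison 13.4% of all probe sets were called and 0 of 4 members were. Neither the rise of mthl11 nor the fall of mthl10 reached 2-fold there. The G5 difference from UAS-3L G1 was 0.43 and did not pass (adjusted p = 0.0719). In G1, G2, G4, G20*, UAS-3L G5 and w1118 the difference lay between -0.15 and 0.24 with adjusted p from 0.327 to 0.968. The call in G5P sat at the 2-fold line: it was lost without UAS-3L G1 replicate 1 or Tub-3L G5P replicate 1, with arrays centred on their median, and against UAS-3L G5 (1.93-fold).

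mthl13 gave dim readings, from 1.84 to 2.72, below the lower quartile on 18 of 18 arrays. Its group means ran from 1.89 in G4 to 2.58 in w1118, a range of 0.70, and the largest difference between arrays of 1 group was 0.56. The arrays read 2.44 and 2.72 in w1118 and 2.54 and 1.98 in UAS-3L G1, so that the highest group overlapped with the control. No difference from UAS-3L G1 passed. w1118 was higher than G4 by 0.70 and than G5P by 0.59 (adjusted p = 0.024 and 0.0354, limma), and higher than the mean of the 8 transgene-line groups by 0.44 (adjusted p = 0.0491). This last difference did not pass with the replicate number as a block, with arrays scaled to RpLP0, or in 12 of the 18 fits that left out 1 array, in which it ranged from 0.30 to 0.58. At this signal the array gives little room to measure a decrease.

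Over all 9 groups 3 of the 4 members differed by the moderated F test of limma, against 82.1% of all probe sets, so this count says little by itself. The adjusted p was 3.48e-10 for mthl8, 6.91e-07 for mthl10, 0.00244 for mthl11 and 0.207 for mthl13. Among the 36 pairs of groups, mthl8 was called in 22, mthl10 in 8, mthl11 in 4 and mthl13 in 0, while 26, 25, 9 and 2 pairs passed the adjusted p alone. In G5P the median difference of the 4 members from UAS-3L G1 was -0.89, beside 0.0068 over all probe sets, and in w1118 it was -0.27 beside 0.00037.

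The members did not follow each other closely. Over the 9 group means the Pearson correlation was 0.82 between mthl8 and mthl10, -0.91 between mthl10 and mthl11, and -0.56 between mthl8 and mthl11. The points share arrays that were normalised together, so these are descriptions. In G2 mthl8 had fallen by 2.52 against UAS-3L G1, while mthl10 differed by -0.27 and did not pass.

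mthl8 lies at the very start of chromosome arm 3L: in the RefSeq gene order it is gene 1 of 3482 on that arm, and the next gene is CG43149, with 0 genes between them. mthl10 is gene 63 of the same arm, between mthl9 and mth, neither of which has a named probe set here. mthl11 lies on arm 3R between cwo and CG6325, and mthl13 on arm 2R between lncRNA:CR44301 and wde. The sources name no genome build for the array, so the RefSeq table served for names and order only. RefSeq lists 2 transcripts for mthl8, 7 for mthl10, 2 for mthl11 and 1 for mthl13, which a single probe set each cannot separate.

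The neighbour of mthl8 had the same split of groups. CG43149 read 5.35 and 5.41 in UAS-3L G1, 5.29 and 5.46 in UAS-3L G5, 4.96 and 5.35 in G20*, and 3.30 and 3.31 in w1118. In the driver line it read 4.91 and 4.95 for G1, 3.29 and 3.35 for G2, 3.44 and 3.20 for G4, 2.92 and 3.07 for G5, and 2.97 and 3.35 for G5P. As for mthl8, the lowest array of the 4 high groups lay well above the highest array of the other 5. Against UAS-3L G1, CG43149 fell by 2.08 in w1118 (adjusted p = 2.3e-06, limma), by 2.06 in G2 (adjusted p = 1.89e-06) and by 2.39 in G5 (adjusted p = 4.34e-08). Unlike mthl8 it also passed in Tub-3L G1, with a decrease of 0.45 (adjusted p = 0.0481). Whether the probes of both genes measure separate transcripts was not tested.

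**Figure D3:**
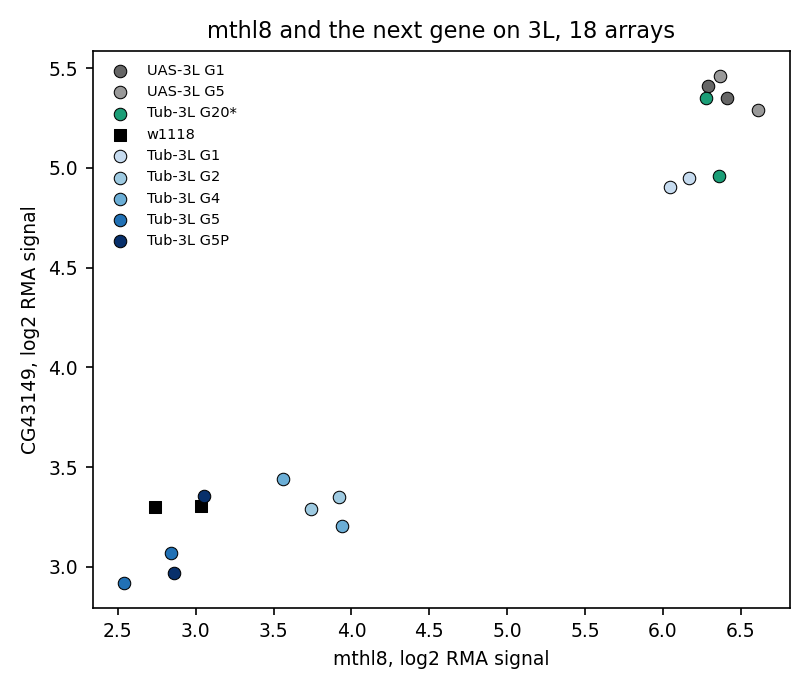
Log2 RMA signal of mthl8 (horizontal axis) against that of CG43149, the next gene on arm 3L (vertical axis), 1 point for each of 18 arrays, with w1118 as squares. The 8 arrays of UAS-3L G1, UAS-3L G5, G20* and Tub-3L G1 form the upper right cloud, with mthl8 from 6.04 to 6.61, and the other 10 arrays form the lower left cloud, with mthl8 from 2.54 to 3.94.

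The next named genes along the arm did not have the split of mthl8. Pdk1, the third gene with a named probe set, encodes a kinase of the insulin pathway and has 10 RefSeq genes between it and CG43149. It was lower in w1118 than in UAS-3L G1 by 1.34, or 2.53-fold (adjusted p = 3.87e-06, limma), whereas in G2 and G5 its differences were -0.44 and -0.22 (adjusted p = 0.0068 and 0.0817). Vdup1 came next, with differences of -0.91 in G5 and -1.73 in G5P and of -0.11 in w1118. For the following named genes Mkp, Gk1, NitFhit and DIP2, the largest difference of any group mean from UAS-3L G1 was -0.51, of NitFhit in Tub-3L G1. The genes between the named probe sets could not be examined by name.

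**Figure D4:**
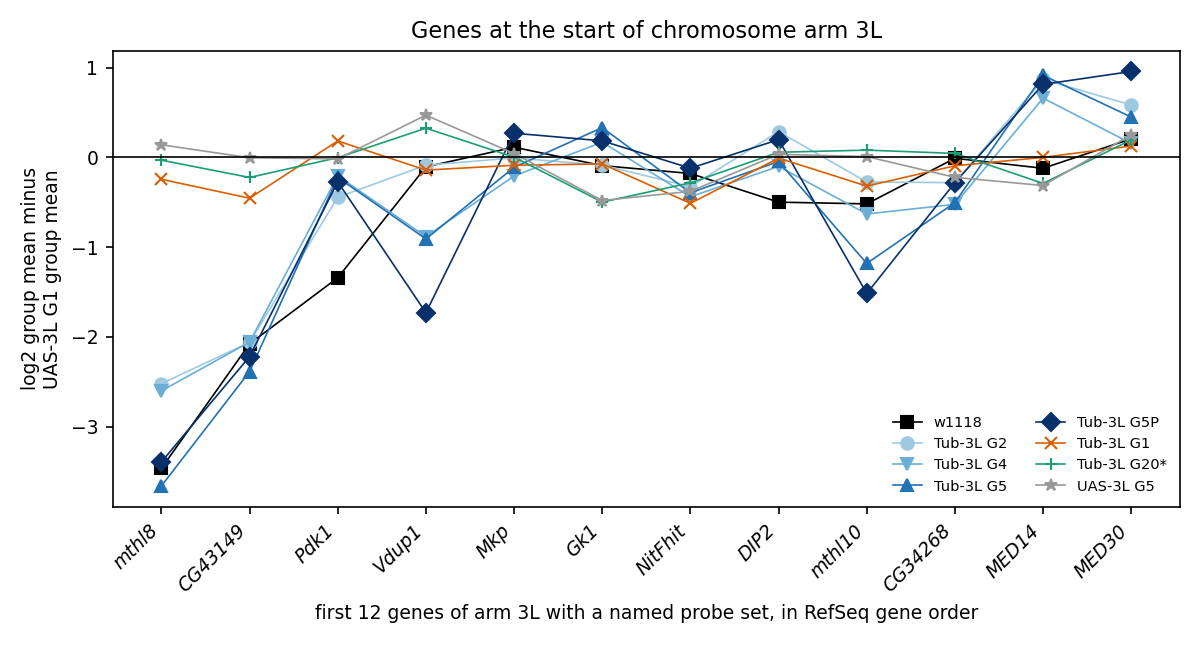
Difference of the log2 group mean from UAS-3L G1 (vertical axis) for the first 12 genes of chromosome arm 3L with a named probe set, in RefSeq gene order (horizontal axis), 1 line for each of the other 8 groups. mthl8 and CG43149 at the left are low in w1118 and in the driver groups from G2 on, Pdk1 is low in w1118 at -1.34, and mthl10 is the ninth gene.

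Few probe sets on the array had this split. After the mthl8 pattern was seen, all probe sets were searched for those whose lowest mean among UAS-3L G1, UAS-3L G5, G20* and Tub-3L G1 lay at least 1 above the highest mean of the other 5 groups. Of 16322 probe sets 17 did, and mthl8 ranked 2 among them with its gap of 2.28. Only 2 of the 17 carry a symbol, mthl8 and CG43149, whose gap was 1.60. In the opposite direction 13 probe sets were found, of which the named ones are Faa, also on arm 3L, and Cyp12a4, a cytochrome P450 on arm 3R, with gaps of 1.25 and 1.66.

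The named probe sets most like each member were ranked by the Pearson correlation of the 9 group means. For mthl8 they were CG43149 (0.98), Dscam4 (0.98), a cell adhesion protein of the immunoglobulin family, and Rcd2 (0.97), all on arm 3L. Next came pinta (0.95) on arm 3R, which takes part in visual pigment synthesis, and Ent1 (0.95) on arm 2L, a nucleoside transporter. The most opposed was Pcyt1 (-0.98), an enzyme of phosphatidylcholine synthesis that also lies on arm 3L. ACC (-0.96) on arm 2R, acetyl-CoA carboxylase of fatty acid synthesis, followed it. Arm 3L holds 454 genes with a named probe set, and the array names 2249 distinct symbols. In w1118 the mean of ACC was 8.79 against 7.03 in UAS-3L G1, and that of Dscam4 was 4.71 against 6.93. A correlation of at least 0.95 with mthl8 was found for 28 of the 16321 other probe sets.

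For mthl10 and mthl11 the lists were much longer, with 257 and 329 other probe sets at 0.95 or more. Those nearest mthl10 were the transcription factor genes fd96Cb (0.99) and eyg (0.99), RhoGAP1A (0.98), the homeotic gene Scr (0.98) and the eye specification gene toy (0.98), and AIF (-0.99) and Polr1B (-0.98) ran most opposed. mthl11 ran with mRpS23 (0.99), a mitochondrial ribosomal protein gene, and with the DNA replication genes Prim2 (0.99) and dpa (0.98), the nucleoside kinase gene dnk (0.98) and the cell cycle regulator E2f2 (0.98). CG43117 (-0.98) and the salivary glue gene Sgs8 (-0.98) ran opposed to mthl11. mthl13 had no probe set at 0.95. The 9 points of such a correlation hold 3 groups, G4, G5 and G5P, in which the marker genes of several organs moved, and the share of that in these values was not tested.

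Other receptors coupled to G proteins were set beside the members by lists of 8 secretin-like and adhesion receptors, 36 peptide receptors and 25 receptors for amines, acetylcholine, GABA, glutamate and adenosine. Of these 31 have a named probe set. In w1118 1 of the 31 was called, beside 4.21% of all probe sets. It was CCAP-R, the receptor for crustacean cardioactive peptide, which was lower by 1.02 (adjusted p = 0.0195, limma). In G2 0 of 31 were called by limma, with 6 at an unadjusted p under 0.05, beside 5.62% of all probe sets called. Such counts say little by themselves. The differences of the 31 from UAS-3L G1 ran from -1.02 to 0.80 in w1118 and from -0.81 to 0.82 in G2. mthl8, at -3.46 and -2.52, lay below all 31 in both. In G5 6 of the 31 were called higher and 5 lower, where 23.2% of all probe sets were called. In G5P 1 was called higher and 6 lower, where 28.9% of all probe sets were. The median differences of the 31 were 0.025 in G5 and -0.20 in G5P.

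**Figure D5:**
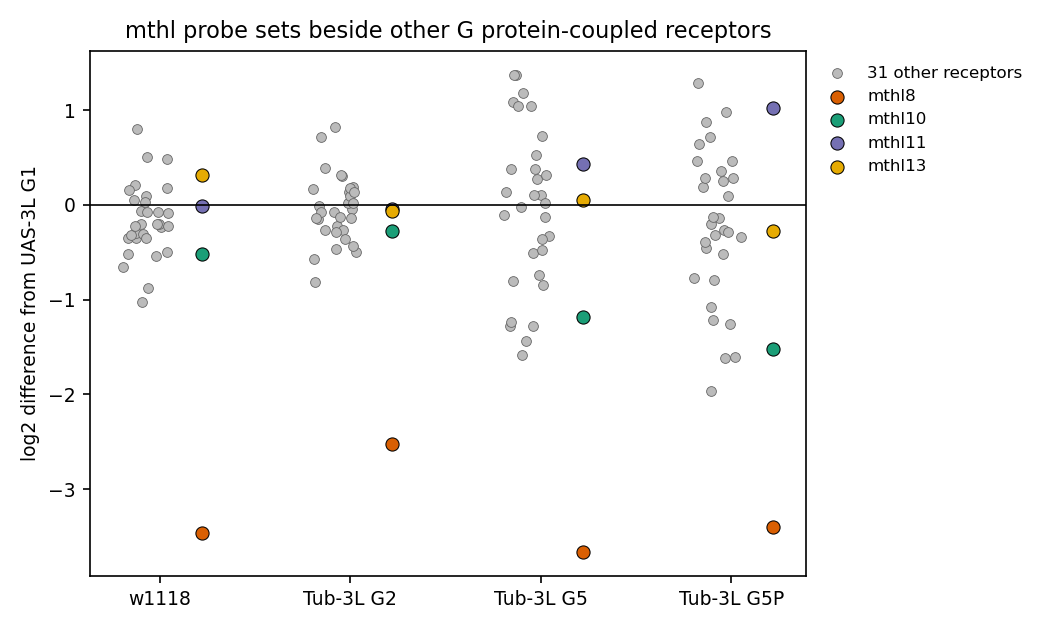
Log2 difference from UAS-3L G1 (vertical axis) of the 4 mthl probe sets (coloured) and of 31 other receptors coupled to G proteins (grey), for w1118, Tub-3L G2, G5 and G5P (horizontal axis). mthl8 lies below every other receptor in all 4 groups, and mthl10 at -1.52 in G5P lies within the range of the others, whose lowest is AdoR at -1.97.

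Named receptors of the late generations moved in both directions. Against UAS-3L G1, AdoR, the adenosine receptor, fell by 1.59 in G5 (adjusted p = 5.34e-07, limma), and Lkr, the leucokinin receptor, by 1.44 (adjusted p = 0.000452). The serotonin receptor gene 5-HT2A rose by 1.37 (adjusted p = 0.000482) and Proc-R, the proctolin receptor, by 1.04 (adjusted p = 0.000158). Of the secretin-like receptors, which are nearest in class to the members, Dh44-R2, a receptor for a diuretic hormone, fell by 1.21 in G5P (adjusted p = 1.55e-06), and Pdfr, the receptor for the circadian peptide PDF, rose by 1.28 (adjusted p = 0.000276). The falls of mthl10 by 1.18 and 1.52 in G5 and G5P were of similar size to those of these receptors, and mthl8 fell by more than any of the 31 in both groups.

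Of the genes tied to the family by function, only smog has a named probe set. It encodes a receptor for Fog, a ligand that another methuselah-like receptor, mthl1, also senses. smog fell by 0.47 in G5 (adjusted p = 0.0177, limma) and by 0.90 in G5P (adjusted p = 0.000192) without reaching 2-fold, and differed by 0.070 in w1118 (adjusted p = 0.772). Downstream, 13 of 27 listed G protein subunits and regulators are named. In G5 4 of the 13 were called higher and 1 lower, where 23.2% of all probe sets were called. The higher ones included Gbeta76C (4.17), Ggamma30A (2.58) and Arr1 (4.95), all of which serve vision in photoreceptors, while Galphas, which stimulates adenylyl cyclase, fell by 1.05 (adjusted p = 3.73e-06). Photoreceptor markers, Arr1 among them, were called higher for 4 of 4 in that group. Of 6 named insulin pathway genes 1 was called in G2, where 5.62% of all probe sets were. It was Ilp5, which fell by 1.11 (adjusted p = 0.00493, limma), beside no change of mthl10 that passed there. In w1118 against UAS-3L G1, 1 of the 6 was also called lower, where 4.21% of all probe sets were called.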

How the data were processed

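Total RNA of larvae was hybridised to Affymetrix Drosophila Gene 1.1 ST arrays. The authors deposited log2 signals, which they made with RMA at gene level in Affymetrix Expression Console 1.3. They were used without further scaling or filter. A second table with 9 columns was left out, because nothing ties its columns to groups. The array's build and scan batches are not given in the sources used here. Probe sets were named from the array annotation and updated through RefSeq.

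R 4.3.3 with limma 3.58.1 fitted 1 mean for each group to 18 arrays (lmFit and eBayes, 9 residual and 2.71 prior degrees of freedom). The Benjamini-Hochberg method adjusted p-values over 16322 probe sets in each comparison. A probe set was called at an adjusted p under 0.05 and 2-fold. The procedure was tested on simulated data. Replicate numbers did not pair the arrays: deviations of same-numbered arrays correlated between -0.06 and 0.04 over 36 pairs of groups.

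Named were all mthl probe sets, the 5 most alike and 2 most opposed named probe sets of each, named genes beside them, and up to 4 called members of each list by smallest p in the comparison with most calls. Symbols with several probe sets were represented by the brightest. Faa, Cyp12a4 and the other genes on arm 3L, and the largest or only differences in a receptor list, were named after their values were seen. The members and lists were chosen with earlier results of these data known. Markers of fat body, heart and imaginal discs have no named probe set here. Alternatives were the replicate block, centring or RpLP0 scaling, a filter on dim probe sets, other controls, the methods' t-test, the 2 groups alone, an intensity trend, no fold threshold and leaving out single arrays.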

Additional observations from a re-analysis of the deposited data

Results flagged for a closer look

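The difference between driver and no-driver larvae changed between the first and the fifth generation for 2 of the 4 members, by a test of the change itself within the limma fit. For mthl8 the driver difference was -3.80 in G5 and -0.24 in G1, a change of -3.55 (SE 0.22, adjusted p = 9.17e-08, limma). For mthl10 it was -1.19 in G5 and -0.32 in G1, a change of -0.87 (SE 0.17, adjusted p = 0.00095, limma). Of all probe sets 46.2% passed this test by adjusted p alone, so the count of 2 of 4 is near that share and says little by itself. Each value rests on 8 arrays, 2 in each of UAS-3L G1, UAS-3L G5, Tub-3L G1 and Tub-3L G5. w1118, which takes no part in that test, had an mthl8 mean of 2.89, close to the 2.69 of Tub-3L G5.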

How the results depend on the processing

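Counts of called members held under most alternatives. With w1118 as the control, limma called 1 member for Tub-3L G1, 1 for G5P and 1 for G20*. Of all probe sets 7.32%, 28.9% and 6.46% were called there. For G2, G4 and G5 it called 0 members each, against 6.18%, 11.8% and 21.7% of all probe sets. In these, 1, 2 and 1 members passed the adjusted p, against 38.8%, 44.5% and 57.7%. Without a fold threshold the count became 2 in G4, 2 in w1118 against UAS-3L G1 and 2 in G5P against G5. It was also 2 in w1118 against the mean of 8 groups, for which the methods' t-test gave 0. Of all probe sets 43.6%, 28.4%, 52.7% and 46.2% passed in these comparisons, in that order, so such counts say little by themselves. With the replicate number as a block the counts were the same, at 2 for G5 and 3 for G5P, and mthl13 in w1118 against the mean of 8 groups (0.44) no longer passed, as it also did not with 12 of 18 single arrays left out. Centring moved a comparison by up to 0.19 and RpLP0 scaling by up to 0.15. Centring turned the sign of mthl11 (-0.055) and mthl13 (-0.051) in Tub-3L G1, mthl13 in G5 (-0.14), mthl10 (-0.065) and mthl11 (-0.0014) in UAS-3L G5, and mthl10 in w1118 against the mean of 8 groups (0.019). RpLP0 scaling turned mthl8 (0.11) and mthl13 (0.024) in G20*. None of these had passed the test. Leaving out 1 array gave 2 to 3 called members in G5P and moved no other count. The G5 difference then ranged from -3.81 to -3.51 for mthl8 and from -1.22 to -1.15 for mthl10, and the w1118 difference of mthl8 from -3.61 to -3.32. Differences from UAS-3L G1 near 0 changed sign when 1 array was left out. For mthl13 they ranged from -0.23 to 0.33 in Tub-3L G1, -0.35 to 0.21 in G2, -0.23 to 0.33 in G5, -0.55 to 0.0071 in G5P, -0.39 to 0.17 in G20* and -0.51 to 0.054 in UAS-3L G5. For mthl11 they ranged from -0.081 to 0.17 in Tub-3L G1, -0.32 to 0.011 in G20*, -0.14 to 0.28 in UAS-3L G5 and -0.14 to 0.12 in w1118. For mthl10 they ranged from -0.015 to 0.18 in G20*, -0.026 to 0.042 in UAS-3L G5 and, against the mean of 8 groups, -0.12 to 0.044 in w1118, and for mthl8 from -0.094 to 0.030 in G20*. The filter on dim probe sets removed mthl11 and mthl13, and left 2 called members in G5P. The number of arrays, 2 in a group, limits the precision, and the dim signal of mthl11, mthl13 and the low groups of mthl8 leaves little room to measure a further decrease.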
